A study of Mus musculus with 9 samples.

Results

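The 32 imprinted genes described here were taken from a list of well-known mouse imprinted loci and looked up by symbol or gene identifier in the authors' deposited tables, which together hold 20076 genes. Of the 32 members, 20 had a ratio in at least 1 table, 16 in both, 1 only in the JICD1 table and 3 only in the NICD1 table. The cells were cultured mouse astrocytes, labelled Ink4a-/-, so all groups lack Ink4a, a tumour suppressor that restrains the cell cycle. They had been transfected with pcDNA HA-JICD1 puro (JICD1, the HA-tagged intracellular part of the Notch ligand Jagged1), with pcDNA NICD puro (NICD1, the intracellular part of the receptor Notch1) or with the empty pcDNA puro plasmid (control). RNA was sequenced from 3 libraries in each group, 9 in all, and the labels do not say whether these came from separate cultures, from 1 line or from several.

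Each of the authors' deposited tables gives 1 log2 ratio of a transfected group over control per gene, and 1 score between 0 and 1 that its header calls Probability. Values of single libraries were not analysed here. The ratios therefore come without replicate errors, tests or p-values, and with unknown sequencing depth. A gene that scored 0.8 or more is called here, and the words higher and lower give only the direction of a ratio. The threshold is not a significance level, and the members had been chosen with earlier results of these data known. Where a gene's ratio and score lie on the curve drawn by genes with equal negative ratios in both tables, a group was inferred to lie at a common floor and no fold is given. This was judged only at absolute log2 ratios from 1 to 9.45, so below 1 it stayed undecided.

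Imprinted genes are transcribed mainly from the maternal or from the paternal chromosome. The choice is set by DNA methylation placed in the germ line at imprinting control regions and kept in somatic cells by factors such as DNMT1, UHRF1, TRIM28 and the zinc-finger protein ZFP57. Many of the genes lie in clusters that share a control region, and paternally expressed genes are often described as promoting growth and maternally expressed ones as restraining it. In the brain the allele choice can depend on cell type, as for Ube3a, which is imprinted in neurons but not in astrocytes. The deposited ratios count RNA from both chromosomes together and say nothing of the allele.

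Promoter windows of Snrpn, Mest, Airn and Igf2r, which were called in at least 1 comparison, are shown because the germ-line mark of the first 3 lies at or near their start sites, whereas Igf2r carries no germ-line mark at its own promoter. The called members Sgce and Impact were not matched in the promoter table. The windows are from RefSeq on GRCm38.p6, run from 250 bases before to 50 bases after a start site, and are those with the most CpG among the starts of each gene. The capitals mark TGCCGC on either strand, the hexamer bound by ZFP57 when methylated. They lie at chr7:60005150-60005449 on the minus strand (Snrpn), chr6:30737800-30738099 on the plus strand (Mest), chr17:12741061-12741360 on the plus strand (Airn) and chr17:12769657-12769956 on the minus strand (Igf2r).
Snrpn: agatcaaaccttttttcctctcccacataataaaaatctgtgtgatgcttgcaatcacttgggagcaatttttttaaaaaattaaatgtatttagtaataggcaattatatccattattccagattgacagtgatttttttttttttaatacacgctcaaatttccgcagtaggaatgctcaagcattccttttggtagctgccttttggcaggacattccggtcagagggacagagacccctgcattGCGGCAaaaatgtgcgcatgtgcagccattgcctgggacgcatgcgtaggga
Mest: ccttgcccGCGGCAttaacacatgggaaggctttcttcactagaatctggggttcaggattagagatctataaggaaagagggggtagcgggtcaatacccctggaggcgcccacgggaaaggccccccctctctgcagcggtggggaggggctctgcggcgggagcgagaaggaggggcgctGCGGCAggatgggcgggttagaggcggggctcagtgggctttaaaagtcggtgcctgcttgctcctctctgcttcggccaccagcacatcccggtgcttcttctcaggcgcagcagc
Airn: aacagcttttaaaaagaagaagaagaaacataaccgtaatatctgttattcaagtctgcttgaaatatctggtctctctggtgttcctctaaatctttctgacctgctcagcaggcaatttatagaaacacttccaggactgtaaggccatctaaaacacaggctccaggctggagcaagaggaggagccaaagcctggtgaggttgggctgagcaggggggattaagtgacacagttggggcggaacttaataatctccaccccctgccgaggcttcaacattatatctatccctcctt
Igf2r: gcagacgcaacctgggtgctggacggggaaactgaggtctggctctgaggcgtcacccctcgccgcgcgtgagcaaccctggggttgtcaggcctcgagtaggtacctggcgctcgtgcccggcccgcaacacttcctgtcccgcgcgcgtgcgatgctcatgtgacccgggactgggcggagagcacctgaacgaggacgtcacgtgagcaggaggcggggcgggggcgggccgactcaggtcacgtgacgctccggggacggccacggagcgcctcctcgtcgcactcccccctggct
The Igf2r window held 34 CpG, the Mest window 17, the Snrpn window 7 and the Airn window 3, against a median of 8 over all genes with a window chosen the same way. TGCCGC was found in the Mest window in 2 places and in the Snrpn window in 1, and in 9 of the 27 members with a window, where 12.2% of all genes had it. This hexamer holds a CpG, and the members' windows had a median of 17 CpG beside 8 for all genes. Its share at equal CpG content was not tested. TGGGAA, the core hexamer bound by the Notch partner RBPJ, was looked for on both strands and found in the Mest window alone of these 4, in 8 of the 27 members and in 25.3% of all genes. These are matches of letters and not binding sites.

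Of the 17 imprinted genes with a ratio in the JICD1 comparison, Sgce, Airn, Impact and Igf2r were called higher and Snrpn was called lower. These 5 are 29.4% of the members with a ratio, beside 2.81% of all 18971 genes of the authors' deposited table, where 1.07% were called higher and 1.74% lower. The members were chosen with earlier results known, and of 25 further imprinted genes with a ratio 0 were called. For so few genes, 0 is near the share of all genes. In bulk RNA, fewer cells of a type and less RNA per cell cannot be told apart. The members' median log2 ratio was 0.07 and their mean -0.07, beside a median of 0.05 for all genes, with 10 members above 0 and 7 below, where 54.5% of all genes lay above and 45.5% below. Of the 17, 8 had an absolute log2 ratio of 1 or more, beside 28.9% of all genes, and 1 had a group inferred at the floor, beside 12.4%. The centre of the imprinted genes was close to that of all genes, with single members far from it in each direction.

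Snrpn, on chromosome 7, encodes SmN, a core protein of the spliceosome that is abundant in brain. In the authors' deposited table for JICD1 it had a log2 ratio over control of -7.91 (score 0.943), which is 240.4-fold lower than control. Its ratio and score did not lie on the floor curve, so the JICD1 group was not inferred to lie at the floor. In the authors' deposited table for NICD1 it had -2.40 (score 0.831), 5.26-fold lower than control. Snrpb encodes the closely related SmB and had ratios of 0.05 (JICD1) and 0.11 (NICD1) in the authors' deposited tables, and was called in neither. In the GENCODE vM21 transcripts, 21.7% of the 50-base stretches of Snrpn also occur in another gene on the same strand, nearly all of them (21.2%) in Gm38393, an annotation of the same locus. The sources used here do not say how reads were shared between those annotations.

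Sgce, on chromosome 6, encodes epsilon-sarcoglycan, a membrane protein of the dystrophin-associated complex whose paternal copy is the active one. Its log2 ratio was 3.84 (score 0.901) for JICD1 in the authors' deposited table, 14.4-fold higher than control. For NICD1 the authors' deposited table gave 4.07 (score 0.922), 16.8-fold higher than control. It was the member with the highest ratio in both comparisons, and none of its 50-base stretches occurs in another annotated transcript. Peg10, the retrotransposon-derived gene that shares a promoter region with Sgce, had no ratio in either table.

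Airn and Igf2r, on chromosome 17, were called higher together in the JICD1 comparison. Igf2r encodes the receptor that clears IGF2 and sorts lysosomal enzymes, and Airn is the noncoding RNA that silences it on the paternal chromosome. In the authors' deposited table for JICD1, Airn had a log2 ratio over control of 1.77 (score 0.834), 3.42-fold higher than control. Igf2r had 1.13 (score 0.814) in the same authors' deposited table, 2.19-fold higher than control. In the authors' deposited table for NICD1, Airn had 1.10 (score 0.758) and Igf2r 0.10 (score 0.337), and neither was called. The 2 genes overlap on opposite strands over 32.5% of Igf2r and 23.9% of Airn. The transcript that the tables quote for Igf2r, chr17:12748653-12750800 on the minus strand of GRCm38, lies inside Airn. The labels do not say that the libraries keep strand, so reads from the overlap cannot be assigned to Airn or to Igf2r with certainty.

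Impact, on chromosome 18, encodes a protein that binds GCN1 and thereby keeps the amino acid sensor GCN2 from being activated. Its log2 ratio was 1.19 (score 0.816) for JICD1 in the authors' deposited table, 2.28-fold higher than control. For NICD1 it had 0.75 (score 0.748) in the authors' deposited table and was not called. With Airn it made up the 2 members that scored from 0.7 to 0.8 for NICD1, which brings the members at 0.7 or more to 5 for NICD1, beside 7.82% of all genes. For JICD1, 0 members scored between these values, so 5 were at 0.7 or more, beside 8.61% of all genes.

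**Figure D1:**
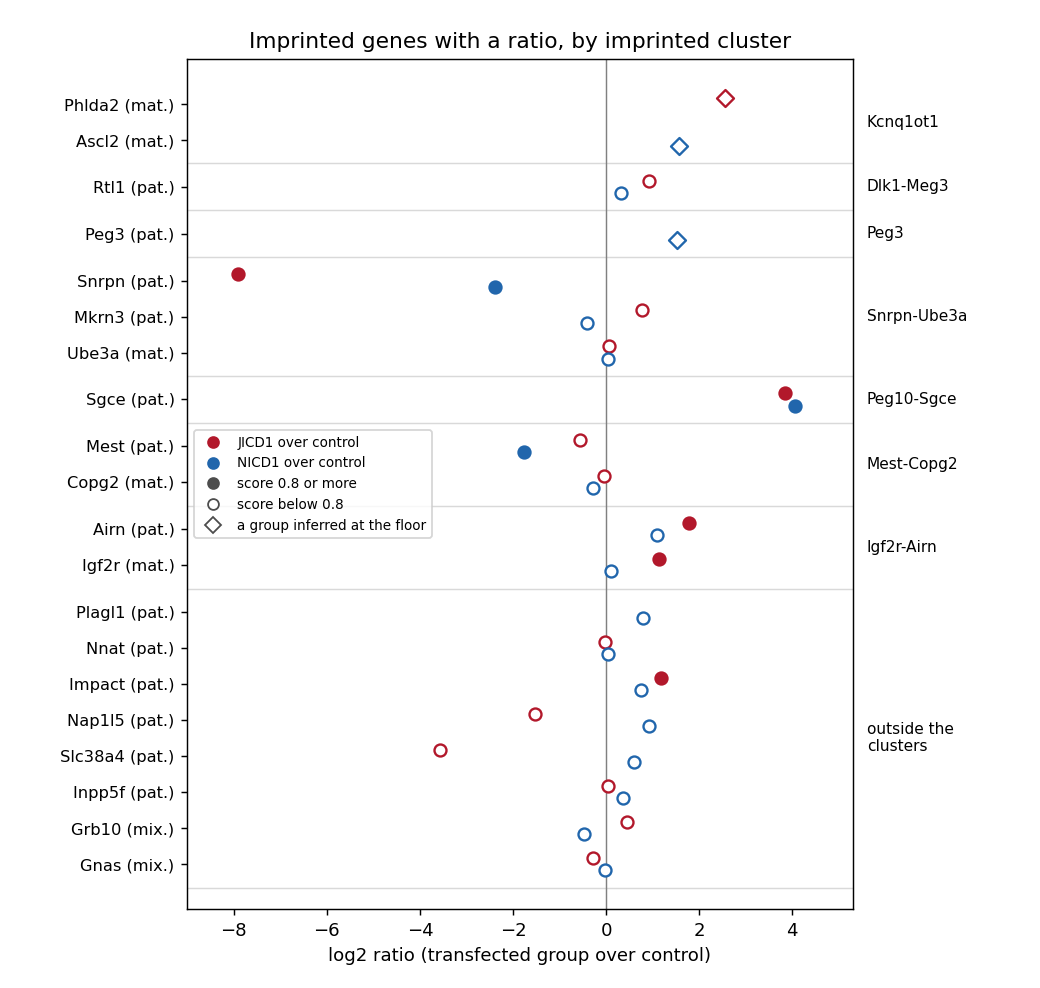
Log2 ratio over control (x axis) of the 20 imprinted genes with a ratio, grouped by imprinted cluster, with JICD1 in red above NICD1 in blue. Filled circles have a score of 0.8 or more, open ones a lower score, and diamonds a group inferred at the floor; pat., mat. and mix. give the expressed allele, and Snrpn at -7.91 and Sgce at 4.07 are the lowest and highest points.

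Of the 19 imprinted genes with a ratio in the NICD1 comparison, Sgce was called higher and Snrpn and Mest were called lower. These 3 are 15.8% of the members with a ratio, beside 2.61% of all 19287 genes of the authors' deposited table, where 1.64% were called higher and 0.97% lower. Of 26 further imprinted genes with a ratio, outside the chosen members, 0 were called, which for so few is near the share of all genes. The members' median log2 ratio was 0.32 and their mean 0.36, beside a median of -0.02 for all genes, with 13 members above 0 and 6 below, where 48.5% of all genes lay above and 51.5% below. Of the 19, 6 had an absolute log2 ratio of 1 or more, beside 28.7% of all genes, and 2 had a group inferred at the floor, beside 13.1%. Ratios were smaller than in the JICD1 comparison at the low end, with a range of -2.40 to 4.07 for NICD1 and of -7.91 to 3.84 for JICD1. Both comparisons use the same control libraries, so their values for a gene are not independent.

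Mest, on chromosome 6, encodes a membrane protein of the endoplasmic reticulum with an alpha/beta-hydrolase fold and is expressed from the paternal chromosome in mesoderm-derived and many other tissues. In the authors' deposited table for NICD1 it had a log2 ratio over control of -1.77 (score 0.839), 3.41-fold lower than control. In the authors' deposited table for JICD1 it had -0.57 (score 0.650) and was not called. Of the 50-base stretches of Mest transcripts, 21.2% occur on the opposite strand of another gene's transcripts, and the gene overlaps Copg2 at their 3′ ends. Copg2, a subunit gene of the COPI vesicle coat, had -0.04 (JICD1) and -0.27 (NICD1) in the authors' deposited tables.

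**Figure D2:**
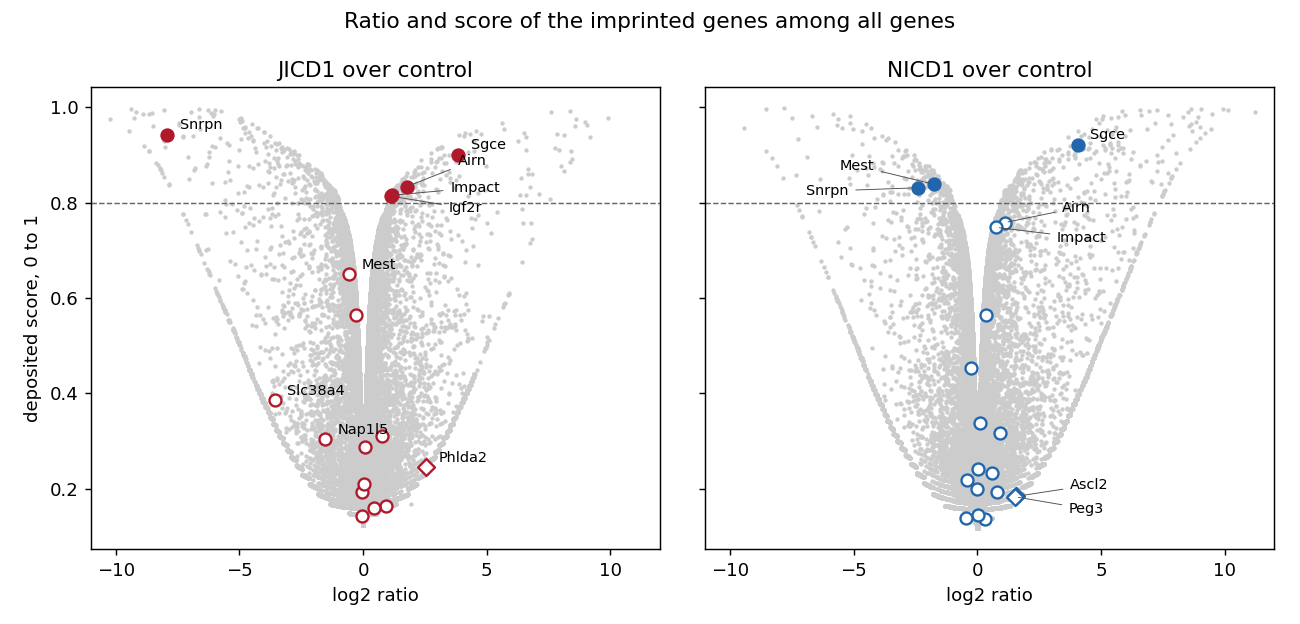
Log2 ratio (x axis) against the deposited score (y axis, 0 to 1) for all genes in grey and the imprinted genes in colour, with JICD1 on the left and NICD1 on the right and a dashed line at the score of 0.8. The 5 called members for JICD1 and the 3 for NICD1 lie above the line, and Phlda2, Ascl2 and Peg3 (diamonds) lie on the outer curve of genes with a group inferred at the floor.

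The members that were not called included genes near 0, genes with large ratios and low scores, and genes at the floor. Within 0.5 of 0 lay 6 members for JICD1 and 9 for NICD1. Among them were Gnas, the gene of the stimulatory G-protein alpha subunit (-0.28 and -0.03 for JICD1 and NICD1 in the authors' deposited tables), and Nnat, which encodes the small membrane protein neuronatin (-0.02 and 0.04 in the authors' deposited tables). Grb10, an adaptor that damps insulin and IGF receptor signalling, had 0.45 for JICD1 and -0.47 for NICD1 in the authors' deposited tables, with scores of 0.160 and 0.137. Whether a group of Grb10 lay at the floor was undecided. Inpp5f, a phosphoinositide phosphatase gene of which a shorter internal transcript is imprinted in mouse brain, had 0.05 and 0.36 in the authors' deposited tables. The transcript quoted for it there is chr7:128688489-128696274 on the plus strand of GRCm38. Its scores of 0.210 (JICD1) and 0.565 (NICD1) were below the threshold, as were those of Grb10, Gnas and Nnat.

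Slc38a4 and Nap1l5 had large negative ratios with JICD1 and low scores. Slc38a4, a neutral amino acid transporter gene, had -3.57 (score 0.386) for JICD1 and 0.60 (score 0.233) for NICD1 in the authors' deposited tables. Nap1l5, an intronless gene of the nucleosome assembly protein family, had -1.53 (score 0.304) for JICD1 and 0.92 (score 0.316) for NICD1 in the authors' deposited tables. Nap1l5 lies wholly inside Herc3 on the opposite strand, and Herc3 had 0.24 (JICD1) and 1.32 (NICD1) in the authors' deposited tables. For Rtl1, a retrotransposon-derived gene known for its role in placental vessels, the authors' deposited tables gave 0.93 and 0.32 with scores of 0.163 and 0.137. Its floor status was undecided too. Plagl1, a zinc-finger transcription factor gene, had a ratio only for NICD1, 0.80 (score 0.194) in the authors' deposited table.

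Phlda2, Ascl2 and Peg3 had ratios above 0 in 1 table each, with the control group inferred at the floor. The authors' deposited table for JICD1 gave Phlda2, which limits placental growth, 2.55 (score 0.244). The authors' deposited table for NICD1 gave Ascl2, a basic helix-loop-helix factor of trophoblast and intestinal stem cells, 1.57 (score 0.184), and the zinc-finger gene Peg3 1.52 (score 0.183). None of these was called. A gene with a ratio in a single table mostly has a positive one, since 779 of the 789 genes found only for JICD1 and 1098 of the 1105 found only for NICD1 lay above 0. The other 12 members had no ratio in either table: H19, Igf2, Kcnq1ot1, Dlk1, Meg3, Rian, Zim1, Usp29, Ndn, Magel2, Peg10 and Zdbf2. They include 4 of the 5 noncoding members and Dlk1, a Delta-like membrane protein gene related to the Notch ligands. The sources used here do not say why a gene has no ratio.

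The 23 clustered members belong to 8 imprinted clusters, of which Snrpn-Ube3a, Igf2r-Airn and Mest-Copg2 had more than 1 member with a ratio in each comparison. The Igf2-H19 cluster had no member with a ratio, and the Kcnq1ot1, Dlk1-Meg3, Peg3 and Peg10-Sgce clusters had at most 1 member with a ratio in each comparison. In the Snrpn-Ube3a cluster, which is linked to Prader-Willi and Angelman syndromes in humans, Snrpn was called lower with both constructs while the other measured members stayed within 1 of 0. Ube3a, a ubiquitin ligase gene expressed from the maternal chromosome in neurons and from both in many other cells, had 0.07 (JICD1) and 0.05 (NICD1) in the authors' deposited tables. Mkrn3, a RING-finger gene known for restraining puberty, had 0.78 and -0.41 in the authors' deposited tables, with scores of 0.310 and 0.218. Of these 3 genes Snrpn and Mkrn3 are paternally expressed, and they differed in direction for JICD1. In the Igf2r-Airn cluster both genes lay above 0 in each comparison, by 1.13 and 1.77 (JICD1) and by 0.10 and 1.10 (NICD1) for Igf2r and Airn in the authors' deposited tables. In the Mest-Copg2 cluster both genes lay below 0 in each comparison, with Copg2 within 0.5 of 0.

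The genes beside the called members were compared by their order on the chromosome, taking the 3 nearest genes with a ratio on each side. This rule was set with earlier results known. Of 27 such neighbours that are no members, 0 of the 26 with a JICD1 ratio and 1 of the 24 with a NICD1 ratio were called, beside 2.81% and 2.61% of all genes. Among them, Atp10a, Peg12, Casd1, Pon2, Pon3 and Asb4 are themselves on the list of further imprinted genes outside the members. They were also counted there, so the neighbours and the further imprinted genes are not separate sets. The called neighbour was Col1a2, a collagen I gene near Sgce, at 1.80 (score 0.862) for NICD1 in the authors' deposited table. Casd1, the sialic acid acetylation gene next to Sgce, had -0.22 (JICD1) and -0.50 (NICD1) in the authors' deposited tables, and Pon3 and Pon2 on its other side had -0.06 and 0.16 for JICD1. For NICD1 the authors' deposited table gave Pon3 -1.46 (score 0.768) and Pon2 0.04. The ratios of Sgce, 3.84 and 4.07, were above those of all 6 neighbours in both comparisons. Neighbours were taken only beside called members, and Sgce had the highest member ratio, so this order was largely set by that choice. Near Snrpn, the aminophospholipid transporter gene Atp10a had 0.44 (JICD1) and -0.20 (NICD1) in the authors' deposited tables. Peg12, a paternally expressed gene of the same region, had 2.57 (JICD1, score 0.775) and -4.30 (NICD1, score 0.589) in the authors' deposited tables and was called in neither. Genes that overlap Airn beyond Igf2r lay above 0 with it. Gm16574 and Gm7162, processed pseudogenes that lie wholly inside Airn, had 2.11 and 1.75 for JICD1 and 1.53 and 0.87 for NICD1 in the authors' deposited tables. Mas1, of which 70.4% lies in Airn on the opposite strand, had 1.68 (JICD1) and 0.89 (NICD1) in the authors' deposited tables. These 3 genes had scores of 0.751, 0.714 and 0.305 for JICD1 in the authors' deposited table, all below 0.8. Reads from Airn and from a gene that overlaps it cannot be told apart where strand is not kept, and for Gm16574, on the strand of Airn, not even where it is. Map3k4, the first gene on the far side of Igf2r with a ratio in both tables, had 0.20 and -0.15 in the authors' deposited tables.

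**Figure D3:**
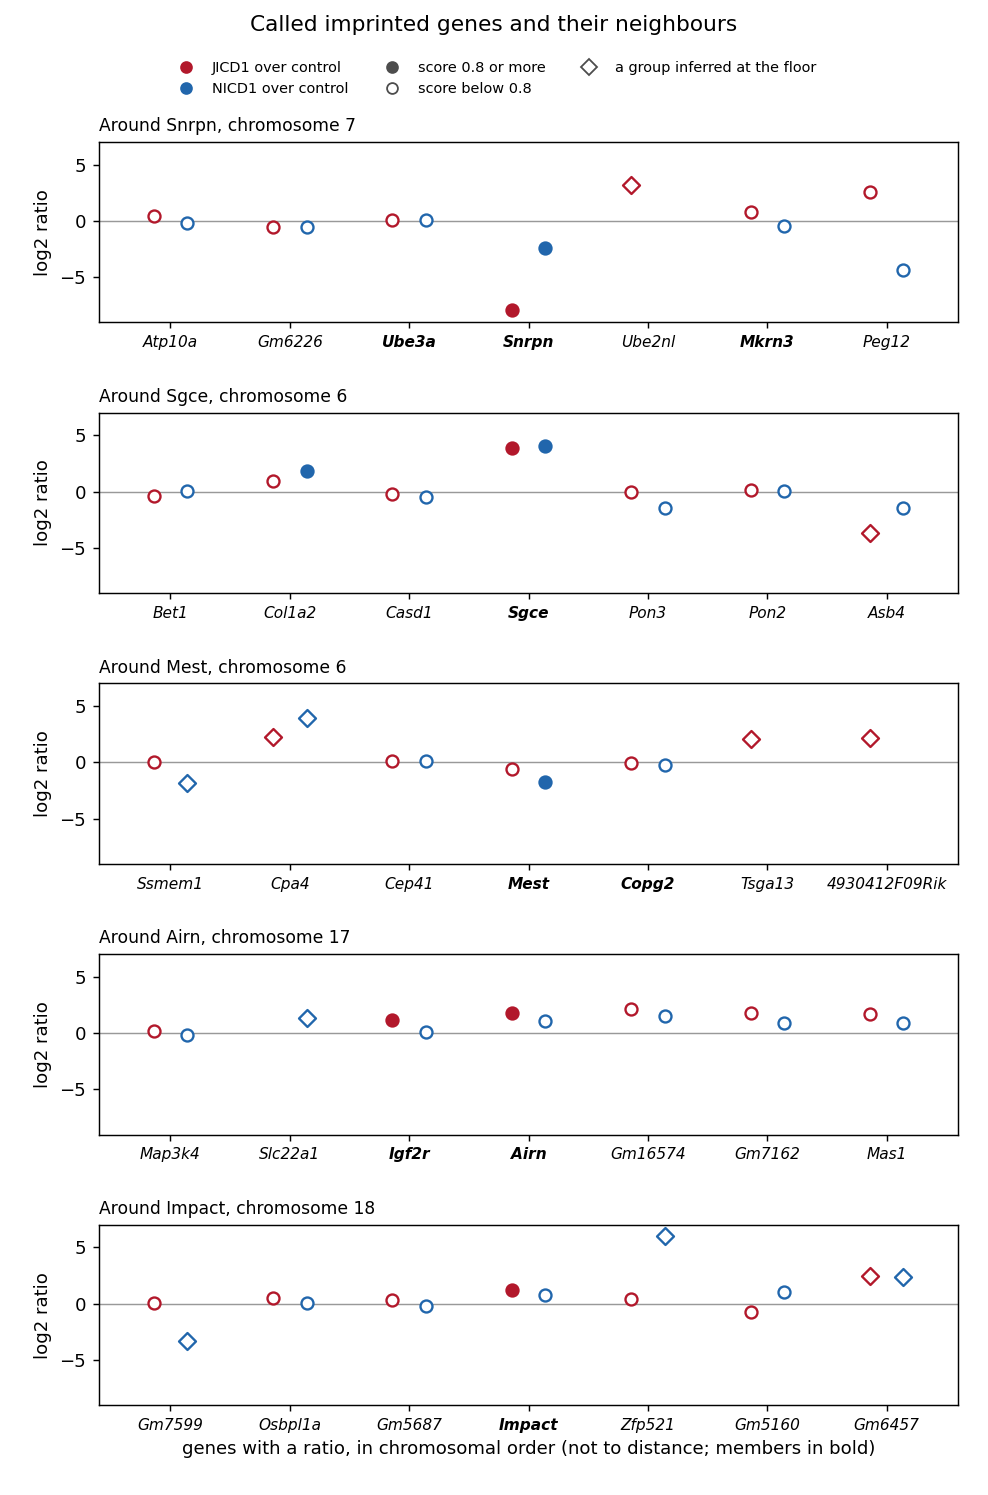
Log2 ratio over control (y axis) of called imprinted genes and of the 3 nearest genes with a ratio on each side, in chromosomal order and not to distance, for JICD1 (red) and NICD1 (blue), with filled circles for a score of 0.8 or more, open circles for lower scores and diamonds for a group inferred at the floor. For JICD1 Snrpn at -7.91 is the lowest and Sgce at 3.84 the highest gene of its panel, while Airn at 1.77 lies beside Gm16574 at 2.11, Gm7162 at 1.75 and Mas1 at 1.68 for JICD1.

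Paternally and maternally expressed members were set side by side, with Grb10 and Gnas kept apart because their allele choice depends on tissue or transcript. For JICD1 the 11 paternally expressed genes had a median log2 ratio of 0.05 and the 4 maternally expressed genes 0.60, a difference of -0.55. For NICD1 the 13 paternally expressed genes had a median of 0.60 and the 4 maternally expressed genes 0.07, a difference of 0.52. The sign thus differed between the constructs. For JICD1 the difference also turned, to 0.18, when Grb10 was counted as paternally and Gnas as maternally expressed. For NICD1 it stayed at 0.43 under either assignment of Grb10 and Gnas. It turned to -0.16 there when Ube3a, Copg2 and Inpp5f were left out. Without Phlda2, the member inferred at the floor, the JICD1 difference was -0.017. No direction by expressed allele can be drawn from these values. The paternally expressed genes ran from -7.91 to 3.84 for JICD1 and from -2.40 to 4.07 for NICD1. The maternally expressed genes, fewer in number, ran from -0.04 to 2.55 for JICD1 and from -0.27 to 1.57 for NICD1. Their highest values were those of Phlda2 and Ascl2, whose control was inferred at the floor. Of the called members, all but Igf2r are paternally expressed, as are 21 of the 32 members.

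**Figure D4:**
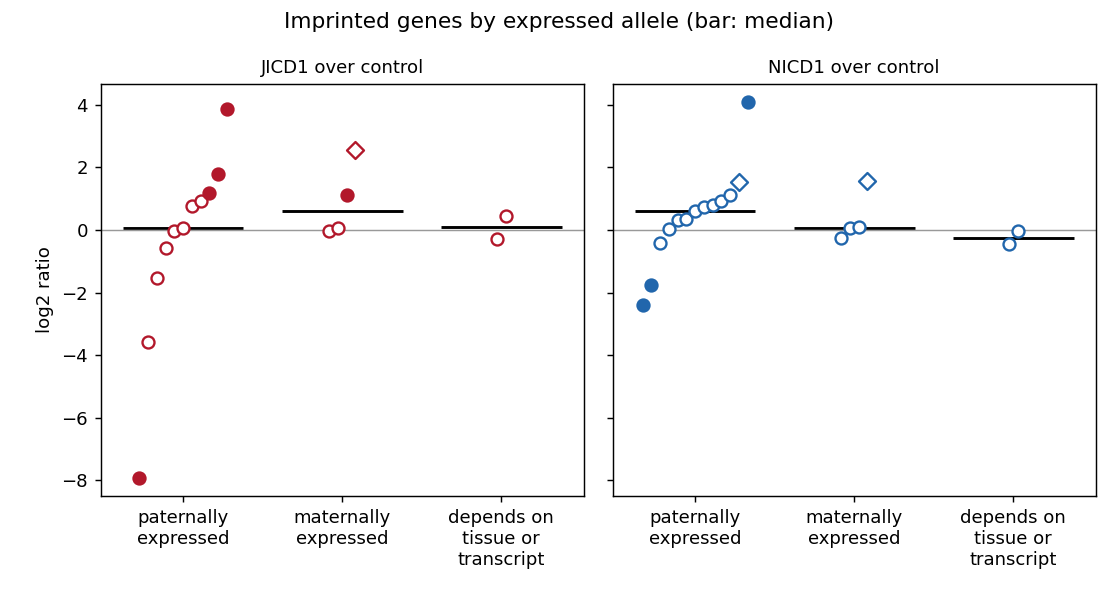
Log2 ratio over control (y axis) of the imprinted genes by expressed allele, for JICD1 (left) and NICD1 (right), each point 1 gene and each bar the median. Filled circles have a score of 0.8 or more, open circles a lower one, and diamonds a group inferred at the floor; the paternally expressed genes reach from -7.91 to 3.84 for JICD1, and the medians of the classes change order between the panels.

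JICD1 was set against NICD1 by subtracting the log2 ratios of the authors' deposited tables, which leaves a difference that carries neither a score nor a test. Of the 16 imprinted genes with both ratios, 3 were higher and 3 lower by 1 or more in the JICD1 group than in the NICD1 group, 37.5% of them, beside 24.2% of all 18182 genes with both, of which 10.6% were higher and 13.6% lower. Snrpn was lower by the most, with a difference of -5.51 between the authors' deposited tables. It was followed by Slc38a4 at -4.17 and Nap1l5 at -2.45, whose scores were below 0.4 in both of the authors' deposited tables. Mest (1.20), Mkrn3 (1.19) and Igf2r (1.03) were higher in the JICD1 group by the difference of the authors' deposited tables. Mkrn3 also scored below 0.4 in both, at 0.310 (JICD1) and 0.218 (NICD1). With each table centred on the median of its genes, 2 and not 3 members were higher by 1 or more. Sgce differed by only -0.22 between the authors' deposited tables, Impact by 0.44 and Airn by 0.67.

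No imprint maintenance gene reached the score of 0.8 in either comparison. Of the 21 imprint maintenance genes with a ratio, 0 were called in either, beside 2.81% (JICD1) and 2.61% (NICD1) of all genes, and in each comparison 16 lay within 0.5 of 0 and 3 at 1 or more from it. With so few genes, a count of 0 is near the share of all genes. Their median was 0.07 for JICD1 and -0.13 for NICD1. For JICD1 12 lay above 0 and 9 below, and for NICD1 4 above and 17 below. Of all genes, 45.5% (JICD1) and 51.5% (NICD1) lay below 0. For the maintenance methyltransferase gene Dnmt1 the authors' deposited tables gave 0.27 (JICD1) and -0.27 (NICD1), and for its partner Uhrf1 -0.19 and -0.36. The de novo methyltransferase gene Dnmt3b had -1.06 (JICD1) and -1.24 (NICD1) in the authors' deposited tables, with scores of 0.573 and 0.625. For Zfp57, which reads methylated TGCCGC at control regions, the authors' deposited tables gave -1.03 (JICD1, score 0.724) and 0.87 (NICD1, score 0.740), neither called. Of a further 41 imprinted genes outside the members, 25 had a ratio for JICD1 and 26 for NICD1, and 0 were called in either. Their medians were 0.16 and -0.17.

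In the IGF2 pathway list, 1 of 11 genes with a ratio was called for JICD1 and 0 of 12 for NICD1, beside 2.81% and 2.61% of all genes. The called gene was Igf2bp2, an RNA-binding protein known to bind Igf2 mRNA, at 1.51 (JICD1, score 0.837) in the authors' deposited table, and at -0.54 (score 0.667) for NICD1. Igf1r, the receptor through which IGF2 signals, had -0.25 (JICD1) and 0.17 (NICD1) in the authors' deposited tables. Among 15 close relatives of the members, 1 was called in each comparison, which is 6.67% of them beside the same shares of all genes. Maged2, a relative of Ndn and Magel2 in the MAGE family, had -1.72 (score 0.821) for JICD1 in the authors' deposited table. Grb14, an adaptor related to Grb10, had 4.79 (score 0.858) for NICD1 in the authors' deposited table.

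Marker genes of several cell types were looked up, but ratios over control do not show which cell type was cultured. Of all genes, 1.07% were called higher and 1.74% lower for JICD1, and 1.64% higher and 0.97% lower for NICD1. Of 10 astrocyte markers 9 had a ratio, and Aqp4 had none. Gfap had -1.36 (JICD1) and -1.52 (NICD1) in the authors' deposited tables, with scores of 0.242 and 0.261. The astrocyte medians were -0.84 and -0.72, and Clu was called lower in both comparisons and Sox9 for NICD1. Of the 9 astrocyte markers, 3 lay above 0 for JICD1 and 2 for NICD1. These were Slc1a2 and S100b in both comparisons and Slc1a3 for JICD1 only, none of them called. Fibroblast and pericyte markers were below 0 for JICD1 in 7 of 7 genes with a ratio, with 5 called lower (Pdgfrb, Dcn, Col1a1, Col3a1 and Anpep) and a median of -2.36. For NICD1 5 of 8 lay below 0, with 2 called lower (Dcn and Col3a1) and 1 higher (Col1a1). Neuron markers had medians of 0.29 over 6 genes (JICD1) and of 2.76 over 5 genes (NICD1). Map2 was called higher and Tubb3 lower for JICD1, and Map2, Stmn2 and Gap43 higher and Tubb3 lower for NICD1. Oligodendrocyte and endothelial markers had no called gene in either comparison. Of 8 microglia markers, 6 lay below 0 for JICD1 and 1 for NICD1, with medians of -0.36 and 0.88. Of these 8, 1 (Tmem119) was called lower for JICD1, at -8.48 (score 0.962) in the authors' deposited table, and 0 were called for NICD1. Levels per group were not analysed here, so no summed level of a marker list can be given, and the part of such markers in the ratios of the imprinted genes was not tested.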

How the data were processed

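RNA-seq was described by the labels for 3 JICD1, 3 NICD1 and 3 control libraries. The submitters' processing notes name Bowtie2, BWA and mm9, without versions or roles. The deposited tables hold, per the file headers, a log2 ratio (transfected group over control) and a score called Probability. The sources used here do not say how reads were counted, how libraries were combined or how the score was made. A replicate test planned for counts could not be run, because the deposited tables hold 1 ratio per gene. The tables held 0 unused numeric columns.

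The members and lists were chosen with earlier results of these data known. Named are all 32 members, the called genes of the other lists, the called relatives and markers, and a few others named after their values were seen. Names came from the tables or from NCBI and GENCODE vM21, which named 18681 of 18971 and 18998 of 19287 genes. The tables' descriptions quote transcripts at GRCm38 positions. Of the 12022 quoted positions whose gene identifier is in GENCODE vM21, 96% lie inside that gene. Gene order and overlaps are from GRCm38.

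The floor was inferred from 694 genes with equal negative ratios in both tables (tolerance 1e-06; 1 gene had an equal positive ratio). Genes within 0.002 of their curve of score against absolute ratio (0.01 above 6), at an absolute log2 ratio from 1 to 9.45, were placed at the floor. Calculations used Python 3.11.15 with pandas 2.3.3. The alternatives were another score threshold, a call by size alone or by both, the tables' own symbols only, leaving out floor genes, centring, and other classes of genes.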

Additional observations from a re-analysis of the deposited data

How the results depend on the processing

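For JICD1 the count of called imprinted genes was 5, and it was 8 by an absolute log2 ratio of 1 or more, whatever the score. For NICD1 it was 3, and it was 5 at a score of 0.7 and 6 by that ratio alone. By an absolute difference of 2 or more, JICD1 and NICD1 differed in 3 members instead of 6. The counts for each construct over control stayed within 1.5 times the reported one with a call by score and ratio together, the tables' own symbols, no floor genes, centring, and without Airn, an alternative chosen after seeing the data. The count of JICD1 against NICD1 did so with centring and without floor genes. The paternal minus maternal difference was the least stable value. For JICD1 it was -1.46 without Ube3a, Copg2 and Inpp5f, -1.38 with means, -0.35 with the tables' own symbols and -0.017 without floor genes or over genes with both ratios. It turned to 0.18 with Grb10 counted as paternally and Gnas as maternally expressed. For NICD1 it was 0.092 with means and 0.31 over genes with both ratios, and it turned to -0.16 without Ube3a, Copg2 and Inpp5f and to -0.062 with the tables' own symbols. The cause of these shifts was not tested. No paired analysis was possible because single libraries have no values in the tables analysed; for the same reason no replicate could be left out, and the low-value filter could not be varied. Depth is unknown.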

Other observations

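Some imprinted genes outside the 32 members had large ratios with scores below the threshold; they were named after their values were seen. Sfmbt2, a Polycomb-group gene imprinted in placenta, had -5.64 for JICD1, with that group inferred at the floor, and 0.95 for NICD1 in the authors' deposited tables. Htr2a, a serotonin receptor gene, was above 0 with both, at 3.89 (score 0.605) and 4.54 (score 0.724) in the authors' deposited tables. Cdkn1c, a cell cycle inhibitor gene of the Kcnq1ot1 cluster, had 4.20 (score 0.401) in the authors' deposited table for JICD1, with the control inferred at the floor, and no NICD1 ratio.

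The symbol cells of the deposited tables differ for 35 of the 18182 genes present in both. Igf2r is among them. It carries a lower-case symbol in the JICD1 table and none in the NICD1 table, so a search by symbol alone finds it in the first only.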
